A study of Mus musculus with 17 samples.

Results

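The 10 genes described here are members of the SIRP and CD300 families of cell surface receptors (Sirpa, Sirpb1a, Sirpb1b, Sirpb1c, Cd300a, Cd300lb, Cd300ld, Cd300ld3 and Cd300lf) and Cd47, which encodes the ligand of SIRPα. They are 10 of 35147 gene symbols listed in 4 deposited expression tables of mouse mammary gland cells. They were chosen by symbol with their measured levels across the CXCR4 sort, the knockouts and culture already known, so these values are given as a description and nothing is supported with them. All 10 are listed in the 3 macrophage tables and 8 in the table of basal cells, where Sirpb1c and Cd300ld3 were not analysed here.

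Paired receptors are families in which inhibitory and activating members have similar outer domains and opposite tails. Inhibitory members carry tyrosine motifs that recruit phosphatases such as SHP-1 (Ptpn6), and activating members have short tails and signal through adaptors such as DAP12 (Tyrobp) or the Fc receptor gamma chain (Fcer1g). SIRPα on macrophages is inhibitory and binds CD47, the signal that restrains engulfment of healthy cells. Mouse Sirpb1 genes encode activating relatives, whose human counterpart does not bind CD47. Several, not all, CD300 receptors are known to bind phosphatidylserine or other lipids of dying cells. CD300a and CD300lf are inhibitory, while in mouse CD300lb and CD300ld are activating.

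The 17 libraries came from mammary glands of virgin mice, whose ages the labels do not give. Macrophages sorted on F4/80 and CD11b made up 8 libraries of 4 groups with 2 each: LysmCre+, Cxcr4fl/fl (Cxcr4 knockout in myeloid cells) and its LysmCre+ control, and K8Cre+, Cxcl12fl/fl (Cxcl12 knockout in luminal epithelial cells) and its K8Cre+ control. Controls thus carry Cre as well, and in the second line the deleted gene is not deleted in the macrophages themselves. Wild type macrophages with the same gate were split into CXCR4+ (2 libraries) and CXCR4- (1 library) cells. Further wild type macrophages were cultured and gave 1 library each untreated, with recombinant CXCL12, with the AKT inhibitor GSK690693, and with both; doses and times are not given. P4 cells, the Lin-CD24+CD29hi basal population enriched for mammary stem cells, gave 1 library from a K8Cre+, Cxcl12fl/fl mouse line and 1 from the K8Cre+ control line.

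Levels are CPM, reads scaled to library depth, for macrophages and FPKM for P4 cells. Depth was 8.60 to 37.2 M reads in the knockout libraries, 23.2 to 28.8 M in the sort and 14.3 to 29.04 M in culture, so that 3 reads, taken as the detection floor, stood for 0.0806 to 0.349 CPM. Small noncoding RNA took 2.96% to 6.73% of CPM in the first replicate of the 4 knockout-experiment groups, against 15.2% to 19.3% in the second replicate of each, and changes are therefore also given per replicate number (repeat). Cxcr4 had 232 and 140 CPM in Cxcr4 knockout macrophages, against 819 and 318 CPM in LysM-Cre controls. Lyz2, the locus that carries LysM-Cre, also stood apart, at 67.4 and 51.7 CPM in Cxcr4 knockout macrophages against 10226 and 2780 CPM in LysM-Cre controls, so these groups differ in more than Cxcr4. The CXCR4 sort was made on surface protein: Cxcr4 mRNA had 632 and 875 CPM in CXCR4+ and 772 CPM in CXCR4- cells, which overlap. Cxcl12 in P4 cells stood at 350 FPKM in the library labelled Cxcl12 knockout and 270 FPKM in the control. Of the 6 macrophage markers, 5 were above 0 in every macrophage library; Fcgr1 was at 0 in LysM-Cre control 1, cultured untreated cells and cells cultured with both agents, and Mertk had 0.116 CPM, under the floor, in K8-Cre control 1. Whether libraries of a group came from separate mice is not stated, so p-values measure the spread between libraries only. In the CXCR4 sort the spread of CXCR4- cells was not measured, and the lone CXCR4- library was assumed to vary like the CXCR4+ pair. The spread given to each gene there was that of genes of like level, with no weight on its own values.

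Several of these genes are near-identical copies, which bears on what each value counts. The 3 Sirpb1 genes lie near each other on chromosome 3 in build GRCm38: Sirpb1a at chr3:15371653-15426520, Sirpb1b at chr3:15495751-15575065 and Sirpb1c at chr3:15795145-15848528, all on the minus strand. Their coding sequences, 1194 bases each in the GENCODE M21 transcripts, were 97.49% identical between Sirpb1a and Sirpb1b, 97.4% between Sirpb1a and Sirpb1c and 98.32% between Sirpb1b and Sirpb1c, and the longest run without a difference among the 3 was 140 bases. Shown are the first 120 coding bases of each copy, counted from the start codon, with the 5 positions that differ between copies in capitals, because within this stretch the copies can be told apart only by those letters.
Sirpb1a: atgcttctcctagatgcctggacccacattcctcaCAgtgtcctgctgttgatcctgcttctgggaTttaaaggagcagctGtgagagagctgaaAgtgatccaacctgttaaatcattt
Sirpb1b: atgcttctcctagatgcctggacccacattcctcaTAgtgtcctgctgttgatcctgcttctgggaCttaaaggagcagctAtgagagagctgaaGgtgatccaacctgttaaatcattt
Sirpb1c: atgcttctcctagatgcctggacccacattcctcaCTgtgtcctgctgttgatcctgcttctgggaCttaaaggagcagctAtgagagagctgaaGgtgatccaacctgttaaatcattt

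Cd300ld3 (chr11:115042131-115048409, minus strand) is closer still to its neighbours on chromosome 11. Its coding sequence of 738 bases differed at 3 positions from that of Cd300ld5 and at 4 from that of Cd300ld4, and the last 708 bases were the same in Cd300ld3 and Cd300ld5. The 3 positions all fall in the first 120 coding bases shown here, again in capitals.
Cd300ld3: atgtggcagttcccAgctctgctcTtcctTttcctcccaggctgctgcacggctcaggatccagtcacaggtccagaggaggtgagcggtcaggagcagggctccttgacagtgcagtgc
Cd300ld5: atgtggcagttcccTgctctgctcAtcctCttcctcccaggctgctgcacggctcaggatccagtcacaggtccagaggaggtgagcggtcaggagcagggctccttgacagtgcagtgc
Cd300ld4: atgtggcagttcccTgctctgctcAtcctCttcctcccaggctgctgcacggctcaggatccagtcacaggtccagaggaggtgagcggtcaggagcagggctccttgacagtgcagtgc
Of all stretches of 50 bases in a gene's transcripts, 82.1% in Cd300ld3, 58.0% in Sirpb1b, 46.1% in Sirpb1c and 40.4% in Sirpb1a also occurred in another gene, against at most 3.89% in the other 6 members, among them 0% in Sirpa. The counting step that divided such reads is not given in the sources used here. Values of these 4 genes are therefore uncertain one by one. Sums over copies are also given for freshly sorted cells and, for the Sirpb1 genes, for culture.

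Cd300ld, which bears a similar name, is a distinct gene at chr11:114982274-114989922. Its coding sequence was 76.96% identical to that of Cd300ld3 over the whole length, with 98 mismatches and 72 gap columns counted as differences. Upstream, windows from 250 bases before to 50 after their RefSeq start sites (GRCm38.p6) were compared. Their best-matching stretch covered 257 positions with 87.55% identity. That measure leaves out unmatched ends, so these percentages are not compared. Both windows are shown, and a difference between these neighbours in the sort was not tested. Capitals mark GAGGAA, the core letters of the binding motif of the myeloid factor PU.1.
Cd300ld, chr11:114989837-114990136, minus strand: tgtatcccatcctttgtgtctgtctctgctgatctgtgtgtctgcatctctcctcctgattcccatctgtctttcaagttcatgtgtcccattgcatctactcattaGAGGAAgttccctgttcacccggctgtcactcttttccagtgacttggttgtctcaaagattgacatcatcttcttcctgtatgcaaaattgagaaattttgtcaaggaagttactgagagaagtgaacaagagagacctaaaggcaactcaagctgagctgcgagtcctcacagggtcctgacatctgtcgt
Cd300ld3, chr11:115048281-115048580, minus strand: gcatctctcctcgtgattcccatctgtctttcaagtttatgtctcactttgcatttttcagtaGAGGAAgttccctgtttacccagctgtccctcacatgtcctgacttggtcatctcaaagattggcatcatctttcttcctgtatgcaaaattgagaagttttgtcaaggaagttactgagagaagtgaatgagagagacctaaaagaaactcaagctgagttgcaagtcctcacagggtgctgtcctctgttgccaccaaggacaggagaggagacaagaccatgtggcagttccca
The letters GAGGAA, or TTCCTC on the other strand, also stood once in the window of Cd300a and at 2 places in that of Cd300lf, and not in those of Cd300lb, Cd47 or the Sirpb1 genes. They occur in 28.28% of the 32851 windows of this kind, and a match describes letters, not a bound site. The window of 9 of the 10 genes was found, all but that of Sirpa.

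In the 8 knockout-experiment libraries Cd47 and Sirpa were the most abundant of the 10 per length. Per kilobase of exon, the median over these libraries was 139 CPM for Cd47, 76.3 for Sirpa, 43.5 for Cd300ld3, 33.2 for Cd300a, 28.6 for Sirpb1a, 23.0 for Cd300lb, 19.7 for Sirpb1c, 16.8 for Cd300ld, 9.31 for Cd300lf and 2.45 for Sirpb1b. Cd47 stood above Sirpa, and Sirpa above Cd300ld3, in 8 of 8 libraries, although the ranges over libraries overlapped for every neighbouring pair in this order. From Cd300ld3 down to Sirpb1c the order of neighbours held in only 4 to 6 of 8 libraries, so neighbours there cannot be ranked, whereas Cd300a, at 26.2 to 73.5 per kilobase, lay above Sirpb1c, at 0.0612 to 25.7, with no overlap. In the 3 sorted libraries Cd47 stood above Sirpa in each, and Sirpa above Cd300ld3 in 2.

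**Figure D1:**
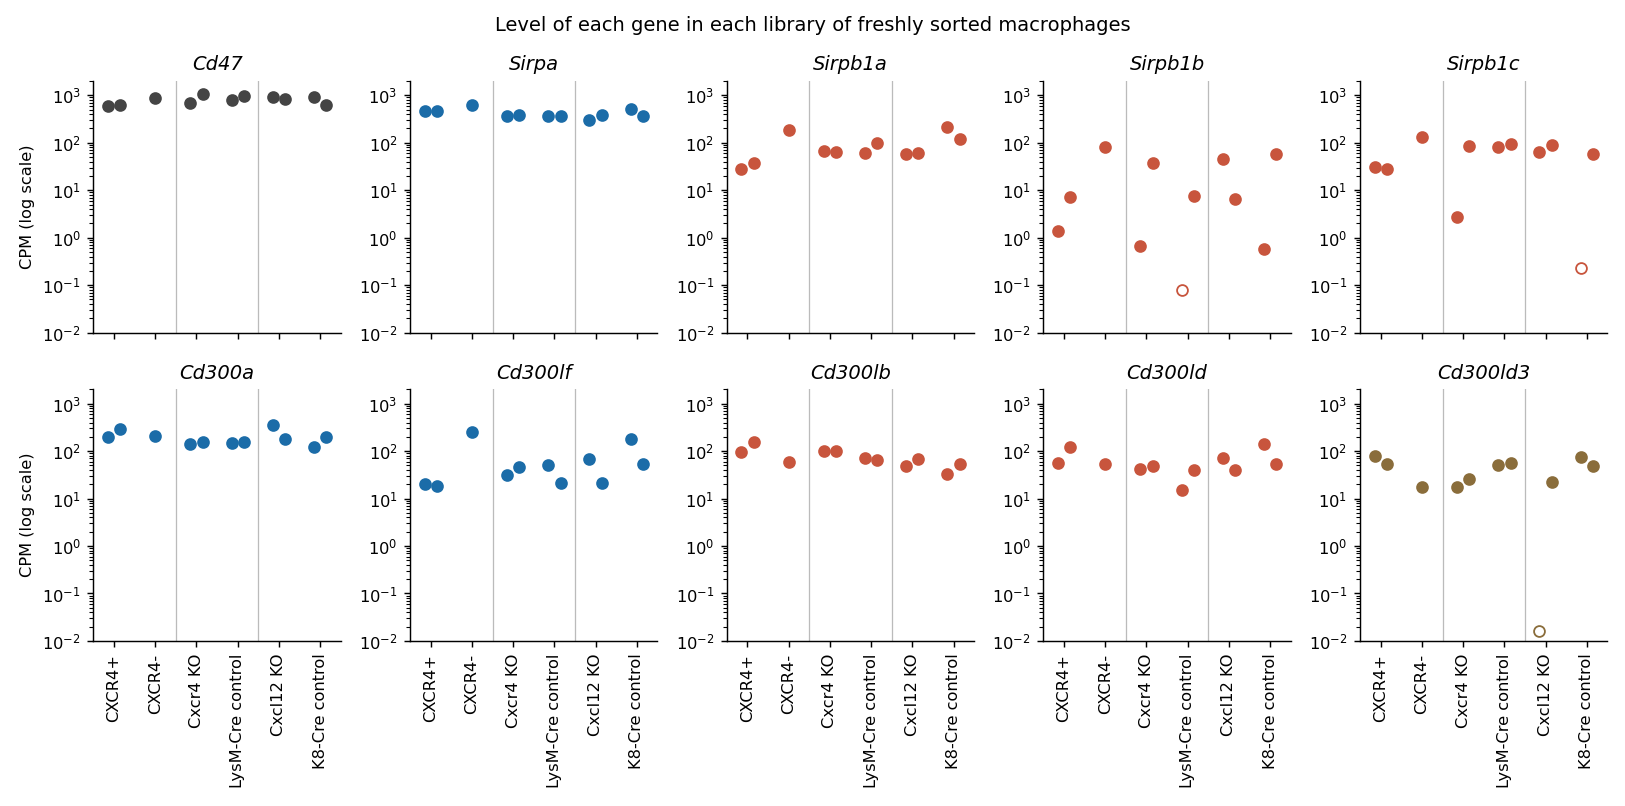
Level in CPM on a log scale (y axis) of each gene in each of the 11 freshly sorted macrophage libraries, with replicate 1 left of replicate 2 within a group and open circles under the floor of 3 reads. Blue marks inhibitory and red activating receptors, grey the ligand Cd47 and brown Cd300ld3. Cd47 and Sirpa stay within a narrow band, whereas Sirpb1b and Sirpb1c spread widely between replicates and Cd300lf in CXCR4- cells lies far above its level in CXCR4+ cells.

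In the CXCR4 sort, set against a single CXCR4- library, all 3 Sirpb1 copies and Cd300lf, the inhibitory phosphatidylserine receptor, were lower in CXCR4+ cells, and Cd300ld3 was higher. These 5 calls rest on a spread taken from genes of similar level: they ended without the mean-variance trend (adjusted p 0.241 to 0.313) and without the filter on low values (0.258 to 0.321), with unchanged differences, and under either setting 0 genes of the table were called. Cd47, Sirpa, Cd300a, Cd300lb and Cd300ld did not pass the test. With limma across all genes and Benjamini-Hochberg adjustment, 1 member was higher and 4 were lower among 10, where 5.06% of the 14411 genes tested were higher and 3.4% lower. Since the genes were chosen with this comparison known, nothing is read from the members' count. The median log2 difference of all genes was -0.20, and all differences are CXCR4+ minus CXCR4- on log2(CPM + 1).

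Cd47 had 594 and 632 CPM in CXCR4+ libraries, against 896 CPM in the CXCR4- library. Its log2 difference was -0.55 (SE 0.33, adjusted p = 0.384). Sirpa, its receptor, had 457 and 463 CPM in CXCR4+ cells and 622 CPM in CXCR4- cells. That difference was -0.44 (SE 0.33, adjusted p = 0.514). For ligand and receptor alike both CXCR4+ libraries lay under the CXCR4- library, by less than the test could separate from the spread.

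Sirpb1a had 28.7 and 37.8 CPM in CXCR4+ cells, against 188 CPM in CXCR4- cells, a log2 difference of -2.48 (SE 0.43, adjusted p = 4.29e-07). Sirpb1b had 1.38 and 7.31 CPM in CXCR4+ cells and 79.7 CPM in CXCR4- cells, with -4.18 (SE 0.81, adjusted p = 1.18e-05). For Sirpb1c the levels were 31.0 and 27.8 CPM in CXCR4+ cells and 134 CPM in CXCR4- cells, with -2.15 (SE 0.45, adjusted p = 7.07e-05). Every CXCR4+ value of the 3 copies was below every CXCR4- value, and how many of all genes have such an order was not counted. Summed over the 3 copies, the level was 61.1 and 73.0 CPM in CXCR4+ cells, against 402 CPM in CXCR4- cells, a log2 difference of -2.57 (SE 0.37, adjusted p = 2.35e-10).

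Cd300lf had 20.2 and 18.7 CPM in CXCR4+ cells, against 255 CPM in CXCR4- cells. Its log2 difference of -3.65 (SE 0.46, adjusted p = 2.36e-13) ranked 99th by p among all genes tested. The other inhibitory member, Cd300a, had 199 and 290 CPM in CXCR4+ cells and 208 CPM in CXCR4- cells, a difference of 0.20 (SE 0.34, adjusted p = 0.801). The CXCR4- value of Cd300a lay between its CXCR4+ values. The difference between the inhibitory CD300 genes was not itself tested.

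Cd300lb, which signals through DAP12, had 94.0 and 153 CPM in CXCR4+ cells, against 58.4 CPM in CXCR4- cells. The difference was 1.03 (SE 0.38, adjusted p = 0.0763), and under median-ratio scaling it passed at 1.19 (adjusted p = 0.0362). Cd300ld, which pairs with the Fc receptor gamma chain, had 55.9 and 125 CPM in CXCR4+ cells and 53.4 CPM in CXCR4- cells, a difference of 0.64 (SE 0.41, adjusted p = 0.417). One CXCR4+ library of Cd300ld lay next to the CXCR4- value and the other well above it. Cd300ld3 had 80.6 and 54.0 CPM in CXCR4+ cells and 17.2 CPM in CXCR4- cells, a difference of 1.88 (SE 0.47, adjusted p = 0.00159). With Cd300ld2, Cd300ld4 and Cd300ld5 added, the sum was 202 and 211 CPM in CXCR4+ cells against 36.8 CPM in CXCR4- cells, a difference of 2.45 (SE 0.37, adjusted p = 2.75e-09).

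**Figure D2:**
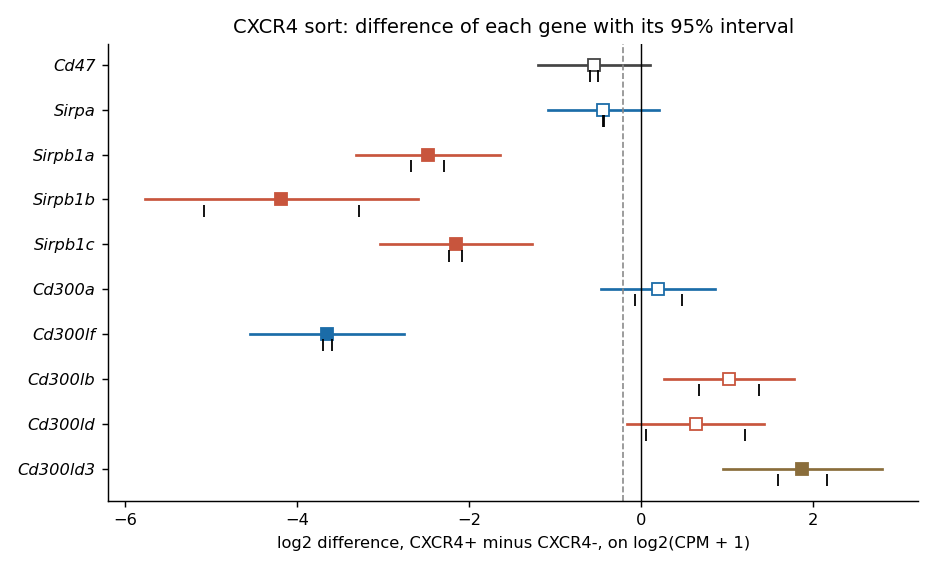
Log2 difference between CXCR4+ and CXCR4- macrophages on log2(CPM + 1) (x axis) for each gene, as a square with its 95% interval from limma, filled where the adjusted p was under 0.05. Ticks under each square give each CXCR4+ library against the single CXCR4- library, and the dashed line marks the median of all genes at -0.20. The 3 Sirpb1 copies and Cd300lf lie left of -2, and Cd300ld3 is the only filled square on the right.

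Markers of other cells moved with the sort. The 6 macrophage markers summed to 3490.5 and 3907 CPM in CXCR4+ cells, against 1530.5 CPM in CXCR4- cells, and 5 of 6 were higher in both CXCR4+ libraries; Itgam was not. The 7 dendritic cell markers summed to 474 and 534 CPM in CXCR4+ cells and 1552 CPM in CXCR4- cells, and 6 of 7 were lower in both CXCR4+ libraries; Xcr1 was higher. The 5 monocyte markers summed to 618 and 658 CPM in CXCR4+ cells and 1045 CPM in CXCR4- cells. Of these, 4 were lower in both CXCR4+ libraries and Ly6c2 was not. Fibroblast and adipocyte markers summed to 155 and 303 CPM in CXCR4+ against 86.6 CPM in CXCR4- cells. Luminal markers summed to 315 and 681 CPM against 295 CPM. B cell markers summed to 237 and 183 CPM against 137 CPM, although 5 of 6 were lower in both CXCR4+ libraries. The 6 eosinophil and mast cell markers summed to 36.5 and 29.4 CPM in CXCR4+ cells, where Epx was at 0 in both libraries and Prg2 in 1, against 131 CPM in CXCR4- cells. The mast cell genes Cpa3 and Mcpt4 went the other way, with 17.8 and 14.96 CPM for Cpa3 and 13.1 and 10.52 CPM for Mcpt4 in CXCR4+ cells, against 0.172 CPM for Cpa3 and 0.259 CPM for Mcpt4 in CXCR4- cells. None of the macrophage, monocyte or dendritic cell markers was at 0 in these 3 libraries. Their part in the differences of the receptor genes was not tested, and fewer cells of a type cannot be told apart from less RNA per cell in bulk samples.

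Of 14 adaptors and tail signalling genes, 0 were higher and 3 lower in CXCR4+ cells, where 5.06% of all genes were higher and 3.4% lower, with a median log2 difference of -0.17 against -0.20 for all genes. These calls and those of the lists that follow were also lost without the trend or the filter. Among those lower, Fgr, a Src family kinase, had means of 47.3 CPM in CXCR4+ and 309 CPM in CXCR4- cells (-2.72, adjusted p = 3.37e-10). Ptpn6, the SHP-1 phosphatase of inhibitory tails, had means of 46.6 CPM in CXCR4+ and 129 CPM in CXCR4- cells (-1.62, adjusted p = 0.00288). The adaptors of the activating receptors stood close together between the sorts: Tyrobp had means of 133 CPM in CXCR4+ and 136 CPM in CXCR4- cells (-0.03, SE 0.36), and Fcer1g 490 CPM in CXCR4+ and 397 CPM in CXCR4- cells (0.30, SE 0.33). Among 4 tested genes for other CD47 ligands and for the enzymes that modify CD47, 1 was lower: Thbs1, thrombospondin 1, with means of 544 CPM in CXCR4+ and 2553 CPM in CXCR4- cells (-2.31, adjusted p = 6.38e-10). The median of these 4 was 0.63.

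Elsewhere in the families, 3 of 9 tested genes were higher in CXCR4+ cells and 1 was lower. Cd300ld5 (2.29, adjusted p = 5.76e-06), Cd300ld4 (4.46, adjusted p = 6.12e-06) and Cd300ld2 (3.42, adjusted p = 0.0333) were the higher ones and are the copies that share sequence with Cd300ld3. Gm9733, a predicted gene listed with the families, had -4.10 (adjusted p = 0.00891). Of 36 tested genes for other paired receptors of myeloid cells, 9 were higher and 3 lower, beside the same 5.06% and 3.4% of all genes, with a median of 0.23. Siglec1, the sialic acid receptor CD169 of resident macrophages, had means of 769 CPM in CXCR4+ and 18.9 CPM in CXCR4- cells (5.24, adjusted p = 4.62e-50). Cd33, a further sialic acid receptor, had 704 CPM in CXCR4+ and 91.8 CPM in CXCR4- cells (2.92, adjusted p = 2.17e-16), and the collagen receptor gene Lair1 had 1.70 (adjusted p = 0.00023). The Fc receptor gene Fcgr1, also a macrophage marker here, had 2.95 (adjusted p = 0.00053). Siglecg, known from B cells, had -3.63 (adjusted p = 6.52e-06), and Siglecf, a marker of eosinophils, had -4.46 (adjusted p = 0.00077).

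Loss of Cxcr4 in myeloid cells left no member past the test. With limma, 0 of 10 members were called with an adjusted p under 0.05, where 0.00579% of 17275 genes were called (1 gene), and 1 member had an unadjusted p under 0.05, as did 575 of all genes. The median log2 change of all genes was 0.14 and that of the members -0.00. Changes are knockout minus control on log2(CPM + 1), and each adjusted p was 1.

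Sirpa had 374 and 386 CPM in Cxcr4 knockout macrophages, against 374 and 375 CPM in LysM-Cre controls, a change of 0.02 (95% interval -0.92 to 0.96). Cd47 had 679 and 1071 CPM in the knockout and 787 and 966 CPM in the control, a change of -0.03 (-0.86 to 0.80). Cd300a had 140 and 157 CPM in the knockout and 148 and 158 CPM in the control, a change of -0.05 (-1.17 to 1.08). These 3 genes, the ligand and 2 inhibitory receptors, were nearly level between the groups, but the intervals allow changes of about 1 log2 unit in either direction. Cd300lf had 32.0 and 45.7 CPM in the knockout and 50.2 and 21.1 CPM in the control, a pair of repeats that went opposite ways, with -0.64 and 1.08 for repeats 1 and 2.

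Cd300lb had 101.4 and 101.7 CPM in the knockout, against 70.4 and 66.0 CPM in the control. Its change was 0.57 (SE 0.75), at 0.52 and 0.62 for repeats 1 and 2. Cd300ld had 41.6 and 47.4 CPM in the knockout and 14.98 and 40.7 CPM in the control, a change of 0.82 (SE 0.84). For these activating receptors the groups did not overlap, yet the spread assigned to genes of their level was wider than the difference. The share of all genes without overlap was not counted, so nothing is read from it. Cd300ld3 had 17.7 and 25.9 CPM in the knockout and 50.8 and 57.3 CPM in the control, a change of -1.29 (SE 1.13), at -1.47 and -1.12 for repeats 1 and 2. With its copies added, the sum was 35.5 and 62.1 CPM in the knockout and 101 and 81.9 CPM in the control, a change of -0.94 (SE 0.74, unadjusted p = 0.211).

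Among the Sirpb1 copies the replicates did not behave alike. Sirpb1c had 2.78 and 86.7 CPM in the knockout, against 79.6 and 94.5 CPM in the control. The change of -2.27 (SE 1.10, unadjusted p = 0.041) came from repeat 1 (-4.41), with -0.12 in repeat 2, and without Cxcr4 knockout 1 it stood at -0.00. Sirpb1b had 0.654 and 38.1 CPM in the knockout and 0.0789 and 7.61 CPM in the control, a change of 1.40 (SE 1.84). One control value of Sirpb1b was under the floor. Sirpb1a had 67.2 and 63.8 CPM in the knockout and 62.4 and 97.4 CPM in the control, a change of -0.25 (SE 0.69). Summed, the 3 copies had 70.7 and 188 CPM in the knockout and 142 and 199 CPM in the control, a change of -0.54 (SE 0.58, unadjusted p = 0.353).

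**Figure D3:**
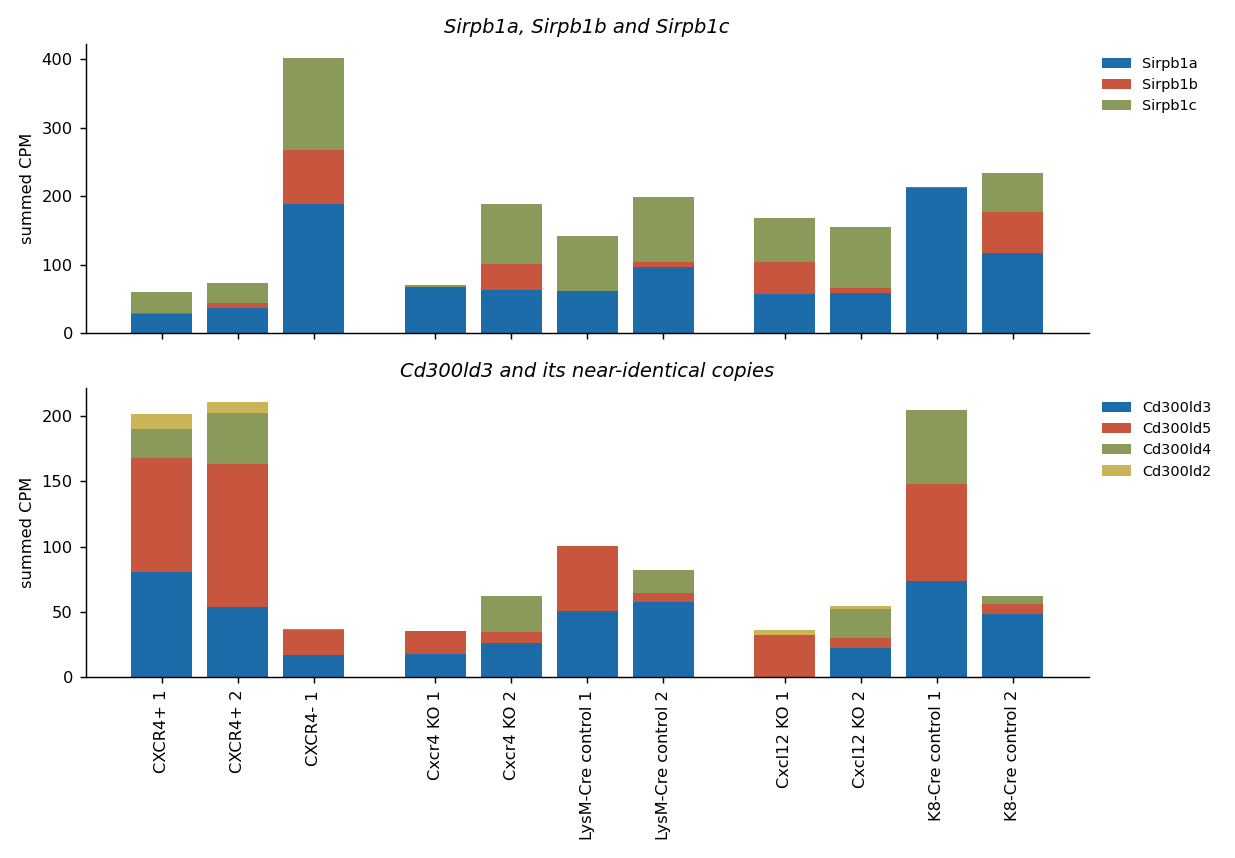
Stacked CPM (y axis, linear from 0) of the 3 Sirpb1 copies, above, and of Cd300ld3 with Cd300ld5, Cd300ld4 and Cd300ld2, below, in each freshly sorted library (x axis). Sirpb1a takes nearly the whole bar in K8-Cre control 1 and Cxcr4 knockout 1, while Sirpb1 bars of CXCR4+ cells are lower than that of CXCR4- cells. In the lower panel the order is reversed between CXCR4+ and CXCR4- cells.

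How the reads fell on the copies differed sharply between libraries of the same group. Sirpb1a held 99.6% of the Sirpb1 sum in K8-Cre control 1 and 50.2% in K8-Cre control 2. In Cxcr4 knockout macrophages it held 95.1% in library 1 and 33.8% in library 2. Cd300ld3 and Cd300ld5 had the same CPM, within 0.5%, in 6 of 15 macrophage libraries, among them 17.7 CPM in Cxcr4 knockout 1, 74.0 CPM in K8-Cre control 1 and all 4 cultured libraries. In Cxcl12 knockout 1 they had 0.0161 CPM for Cd300ld3 and 32.0 CPM for Cd300ld5. Equal values in separate genes that share 708 coding bases are a feature of these tables, and the part of read assignment in it was not tested.

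Loss of Cxcl12 in luminal cells also left no member past the test in macrophages, while 3 members had an unadjusted p under 0.05. With limma, 0 of 10 were called, where 0% of 17275 genes were called, and 491 of all genes had an unadjusted p under 0.05. All genes had a median change of 0.36 and the members one of -0.08. Each adjusted p was 1. Under quantile normalization the median of all genes was 0.02, so a change near 0.36 here equals that of the typical gene.

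Cd300ld3 had 0.0161 and 22.7 CPM in Cxcl12 knockout macrophages, against 74.0 and 48.2 CPM in K8-Cre controls. The first of these values is under the floor of 3 reads. The change was -3.63 (SE 1.13, unadjusted p = 0.0018), rank 14 by p among all genes, at -6.21 and -1.05 for repeats 1 and 2. Without Cxcl12 knockout 1 it stood at -1.36. The sum with the copies was 36.0 and 54.9 CPM in the knockout and 204 and 62.1 CPM in the control, a change of -1.32 (SE 0.74, unadjusted p = 0.0779). Both knockout values lay below both control values for Cd300ld3 alone and for the sum, in this line as in the Cxcr4 line. None of these changes passed the test, and how many of all genes have such an order was not counted.

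Sirpb1c had 65.3 and 89.7 CPM in the knockout, against 0.226 and 57.3 CPM in the control, the first control value being under the floor. Its change was 3.20 (SE 1.10, unadjusted p = 0.0043), at 5.76 and 0.64 for repeats 1 and 2. It stood at 0.41 without K8-Cre control 1, and passed at 5.98 (adjusted p = 0.0424) without K8-Cre control 2. Sirpb1a had 58.1 and 59.6 CPM in the knockout and 213 and 117 CPM in the control, a change of -1.41 (SE 0.69, unadjusted p = 0.0434), at -1.85 and -0.97 for repeats 1 and 2. Sirpb1b had 45.8 and 6.47 CPM in the knockout and 0.573 and 59.2 CPM in the control, and repeats 1 and 2 went opposite ways, with 4.89 and -3.01. The sum of the 3 copies was 169 and 156 CPM in the knockout and 214 and 234 CPM in the control, a change of -0.46 (SE 0.58, unadjusted p = 0.428). Both knockout sums lay below both control sums, by less than the test could separate from the spread. The share of all genes with that order was not counted.

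Sirpa had 305 and 382 CPM in the Cxcl12 knockout and 512 and 371 CPM in the control, a change of -0.35 (95% interval -1.29 to 0.59). Cd47 had 915 and 834 CPM in the knockout and 924 and 629 CPM in the control, a change of 0.20 (-0.64 to 1.03). Cd300a had 348 and 183 CPM in the knockout and 124 and 199 CPM in the control, and its 1.48 in repeat 1 and -0.12 in repeat 2 were of opposite sign. For the ligand and these receptors the groups overlapped. Cd300lf had 66.5 and 21.7 CPM in the knockout and 180 and 52.8 CPM in the control. Its change was -1.33 (SE 0.85), at -1.42 and -1.25 for repeats 1 and 2. The groups overlapped, and in each the repeat 1 library was the higher one. Repeat numbers were not taken to pair libraries. Cd300lb had 49.7 and 67.9 CPM in the knockout and 33.0 and 52.6 CPM in the control (0.47, SE 0.75), and Cd300ld had 70.0 and 39.3 CPM in the knockout and 138 and 54.3 CPM in the control (-0.71, SE 0.84).

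**Figure D4:**
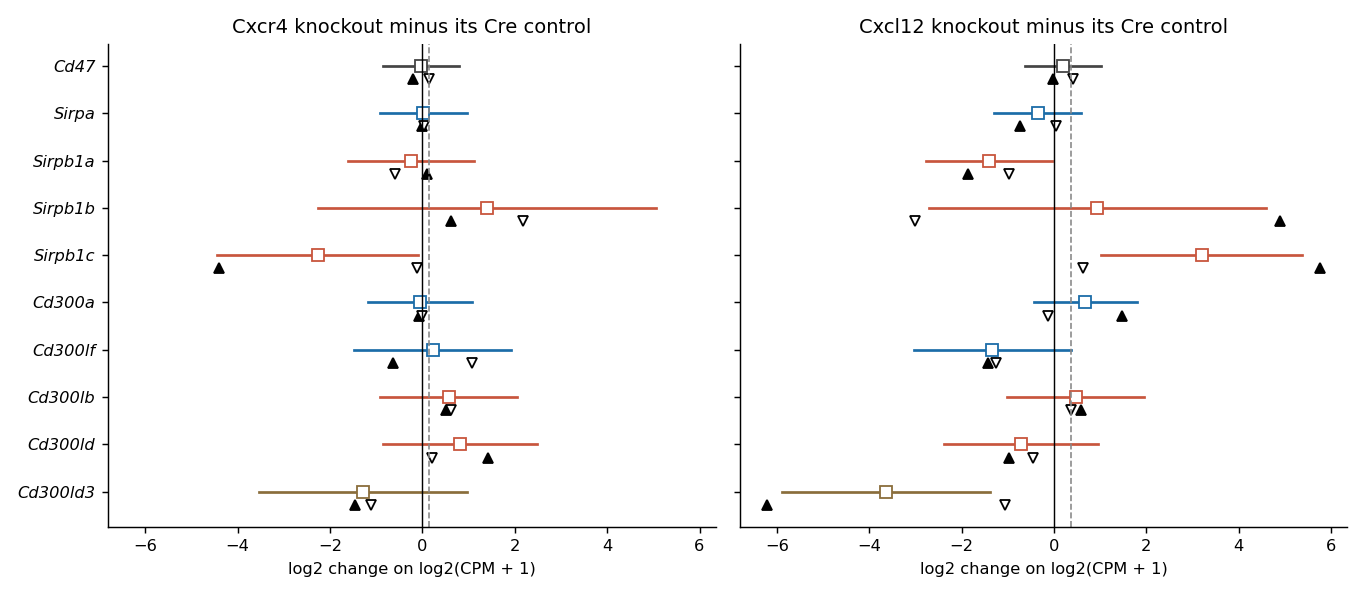
Log2 change on log2(CPM + 1) (x axis) of each gene in Cxcr4 knockout (left) and Cxcl12 knockout (right) macrophages against the Cre control of the same line, as open squares with 95% intervals from limma. Filled triangles show repeat 1, open triangles repeat 2, and dashed lines the median of all genes (0.14 left, 0.36 right). Cd47, Sirpa and Cd300a sit close to 0 on the left, and the repeats of Sirpb1b, Sirpb1c and Cd300ld3 are far apart on the right.

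The changes in the lines were also set against each other, Cxcr4 knockout minus Cxcl12 knockout. No member was called (0 of 10), where 0.00579% of all genes were called. Sirpb1c had a difference of -5.47 (SE 1.55, unadjusted p = 0.0006, adjusted p = 0.9999), rank 5 by p, at -10.17 and -0.76 for repeats 1 and 2, and the sum of the 3 copies had -0.08 (SE 0.82). Macrophage markers summed to 2540 and 1799 CPM in the Cxcr4 knockout against 2219 and 1519 CPM in its control, and to 1180 and 1507 CPM in the Cxcl12 knockout against 1650 and 1889 CPM in its control. Dendritic cell markers summed to 1429 and 964 CPM in the Cxcr4 knockout against 2021 and 1151 CPM in its control, and to 1506 and 849 CPM in the Cxcl12 knockout against 1862 and 827 CPM in its control. Their part in the receptor values was not tested.

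No tested gene of the 4 further lists passed in either knockout. In the Cxcr4 knockout the medians were 0.24 for 14 adaptors and tail signalling genes, 0.53 for 4 genes of CD47 ligands and processing, 0.05 for 9 other CD300 and SIRP genes and 0.35 for 36 other paired receptors, beside 0.14 for all genes. With limma, the smallest p of each list other than the adaptors and tail signalling genes belonged to Thbs1 (0.71, unadjusted p = 0.0807), Cd300c (-2.86, unadjusted p = 0.0129) and Trem1 (2.87, unadjusted p = 0.00993). Cd300c, an activating CD300 receptor gene, was at 0 in the knockout and had a mean of 6.52 CPM in the control, so its fitted change depends on the pseudocount. Trem1, a DAP12-coupled amplifier of inflammation, had means of 74.3 CPM in the knockout and 9.998 CPM in the control, at 5.07 and 0.66 for repeats 1 and 2. Next among other paired receptors were Cd200r4 (-4.07), Lilr4b (0.82) and Pilrb1 (2.78), with unadjusted limma p of 0.0324, 0.0544 and 0.0547. Repeats 1 and 2 gave 4.65 and 0.90 for Pilrb1. In the Cxcl12 knockout the medians of the same lists were -0.06, 0.84, -0.09 and -0.10, beside 0.36 for all genes. There the smallest limma p values were those of Tyrobp (-0.88, unadjusted p = 0.143), Thbs1 (-0.34, unadjusted p = 0.395), Cd300ld2 (1.98, unadjusted p = 0.0337) and Siglec1 (-1.29, unadjusted p = 0.0119). Clec4n, the Dectin-2 gene, followed in the last list (2.99, unadjusted p = 0.027), at 4.94 and 1.05 for repeats 1 and 2. Siglec1 had means of 165 CPM in the knockout and 423 CPM in the control.

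Over the 8 knockout-experiment libraries, the genes whose log2 levels ran most like those of 3 members were sought among 8983 genes of at least 10 CPM on average. For Sirpa these were Akr1a1 (Pearson r = 0.957), Med8 (0.952) and Mcm5 (0.944). For Cd300a they were Sla (0.961), Nfat5 (0.942) and Usp34 (0.927), and for Cd47 they were Arhgap31 (0.982), Slco5a1 (0.956) and Eif2ak3 (0.937). These are the highest of 8983 values each over 8 libraries that differ in depth and in their share of small noncoding RNA, and they are a description with no test.

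Cultured macrophages had Cd47, Sirpa, Cd300a and Cd300lb at high levels and had little of the Sirpb1 copies and Cd300ld3. With 1 library a condition there is no replicate check, and a log2 ratio was called where it reached 2-fold with at least 10 CPM in the higher library. Intervals in parentheses cover counting error only. Macrophage markers summed to 653 to 912.5 CPM in the 4 libraries, and fibroblast and adipocyte markers to 457.98 to 589 CPM. Tables were normalized separately, so these levels are not compared with those of fresh cells by a test.

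Cd47 had 292 CPM untreated, 259 with CXCL12, 206 with GSK690693 and 160 with both. Sirpa had 151 CPM untreated, 135 with CXCL12, 148 with GSK690693 and 192 with both. The ligand was thus lowest and its receptor highest in the library that received both agents, and neither moved by 2-fold. Sirpb1a was listed at 0 in all but the CXCL12 library (8.04 CPM), and Sirpb1c at 0 in both libraries with GSK690693, with 6.45 CPM untreated and 3.25 with CXCL12. Sirpb1b had 0.0729 CPM untreated, under the floor, then 2.00 with CXCL12, 2.44 with GSK690693 and 7.86 with both. No cultured library held more than 10 CPM of any single Sirpb1 copy, so they were not counted one by one. Summed, the 3 copies had 6.53 CPM untreated, 13.3 with CXCL12, 2.44 with GSK690693 and 7.86 with both. Ratios of these sums were not taken.

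Cd300a had 130 CPM untreated, 240 with CXCL12, 93.5 with GSK690693 and 208 with both. It was higher with added CXCL12 than without added CXCL12 on either background. The log2 ratio was 0.89 (0.83 to 0.95) against untreated cells and 1.15 (1.06 to 1.25) in the presence of the inhibitor. The cultures also held Cxcl12 mRNA, at 277 CPM untreated, 218 with CXCL12, 282 with GSK690693 and 443 with both. Cd300lf had 23.6 CPM untreated, 27.7 with CXCL12, 7.61 with GSK690693 and 11.7 with both. It was lower with the inhibitor on either background, at -1.62 (-1.95 to -1.33) against untreated cells and -1.24 (-1.49 to -1.02) against CXCL12 alone. Both genes, and likewise the activating Cd300lb below, were higher with CXCL12 and lower with GSK690693 on either background in these single libraries. The CXCL12 ratios of Cd300lf (0.23 and 0.61) and the GSK690693 ratios of Cd300a (-0.47 and -0.21) were within 2-fold. The 5 monocyte markers summed to 121 CPM untreated, 202 with CXCL12, 124 with GSK690693 and 200 with both, and so were also higher with CXCL12 on either background. Their part in these values was not tested.

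Cd300lb had 83.9 CPM untreated, 93.9 with CXCL12, 51.5 with GSK690693 and 63.9 with both, and stayed within 2-fold. Cd300ld had 12.96 CPM untreated, 18.2 with CXCL12, 28.6 with GSK690693 and 14.8 with both, a log2 ratio of 1.13 (0.92 to 1.37) for the inhibitor against untreated cells, beside -0.30 (-0.53 to -0.08) in the presence of CXCL12. Cd300ld3 had 3.98 CPM untreated, 0.782 with CXCL12, 1.19 with GSK690693 and 7.61 with both. Its copy Cd300ld5 had the same values, and Cd300ld4 had 2.92, 0.226, 0 and 0.00355 CPM in the same order. Cd300ld3 was thus not counted by itself, and a ratio over its summed copies was not taken. Of the 6 members counted, 0 were called for CXCL12 against untreated, where 26.3% of genes were called. For GSK690693 against untreated 2 were called, where 36.3% of genes were, for both agents against GSK690693 1 was, where 48.9% were, and for both agents against CXCL12 1 was, where 47.7% were. These shares are close to or below the background, and nothing is read from them.

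**Figure D5:**
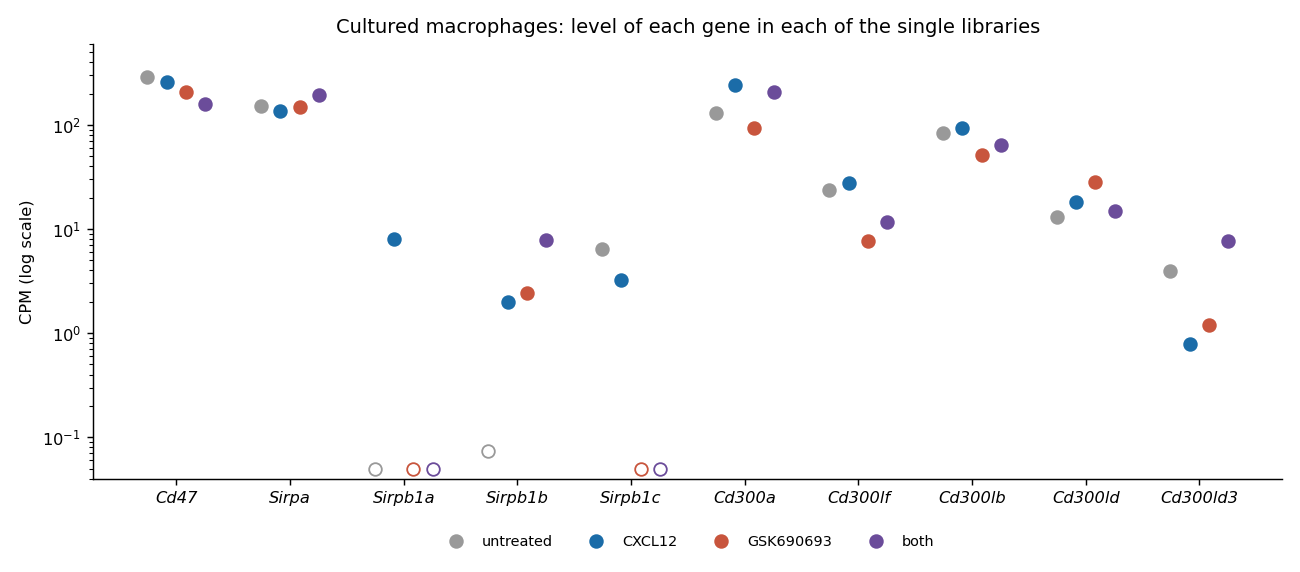
Level in CPM on a log scale (y axis) of each gene in each of the 4 cultured libraries (colours), with open circles under the floor of 3 reads and values listed at 0 drawn near the lower edge. Cd300a is high in both libraries with CXCL12, Cd300lf is low in both with GSK690693, and the Sirpb1 copies lie at or under 10 CPM.

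Of the adaptors and tail signalling genes counted in culture, CXCL12 against untreated gave 2 of 13 at least 2-fold higher and 1 lower, and GSK690693 against untreated 2 of 12 higher and 3 lower. Of the other paired receptors, CXCL12 against untreated gave 6 of 24 higher and 1 lower, where 1158 of all 9678 genes counted were higher and 1387 lower, with a median log2 ratio of 0.44 against -0.03 for all genes counted. GSK690693 against untreated gave 3 of 20 higher and 2 lower, where 2021 of 10158 genes were higher and 1664 lower, with a median of 0.01. Among the 4 counted genes of CD47 ligands and processing, 0 were higher and 1 lower with CXCL12, and 1 was higher and 2 were lower with GSK690693.

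In P4 basal cells Cd47 and Sirpa stood above the other 6 listed members. Cd47 had 55.6 FPKM in the library labelled Cxcl12 knockout and 45.7 FPKM in the control, a log2 ratio of 0.28 on FPKM + 1, and 94.0% of genes were lower than it in the control. Sirpa had 9.31 FPKM in the library labelled knockout and 8.94 FPKM in the control, where 77.1% of genes were lower. The 6 other listed members stood at 0.093 to 1.16 FPKM in the library labelled knockout and 0.0271 to 0.617 FPKM in the control. Macrophage markers summed to 9.6 FPKM in the library labelled knockout and 7.4 FPKM in the control, and basal markers to 6278 FPKM in the library labelled knockout and 4662 FPKM in the control. Cd47 was the 1 member with at least 10 FPKM and it was not called, where 13.3% of genes were called. The depth of these libraries is unknown and there is no replicate.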

How the data were processed

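The deposited log2 values of the 3 macrophage tables are, read from the values, log2(CPM + 0.0001) made by the authors. After back-calculation, 74.8% to 90.5% of values up to 50 reads were whole multiples of 1 step (tolerance 0.05 reads), taken as 1 read, so the tables hold no counts. The deposited FPKM values of P4 cells came from the authors' tracking table. Per the submitters' processing notes, STAR 2.7.8a, Partek and the build hg38 are named, but the files' symbols belong to mouse; how reads were counted is not given in the sources used here. Start positions of the knockout and sort tables matched GENCODE M21 on GRCm38 in 99.5% of genes, those of the culture table in 2.16% and of the P4 table in 37.4%; printed coordinates come from the annotation or RefSeq, not from the tables.

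The members and gene lists were chosen with earlier results of these data known. Knockout changes were fitted with limma 3.58.1 (R 4.3.3) on log2(CPM + 1) as 4 group means over 8 libraries, and the sort as 2 groups over 3, with moderation, a mean-variance trend, a filter that kept genes reaching 1 CPM in 2 or more libraries, and Benjamini-Hochberg adjustment over all genes tested; tests are two-sided, with a threshold of 0.05. The spread of a gene came mostly from genes of like level in the knockouts (97.3 prior and 4 residual degrees of freedom). In the sort it came wholly from them (infinite prior and 1 residual). The script was tested on simulated data. Culture ratios used an added 2 reads (0.0993 CPM) and exact 95% binomial intervals, P4 ratios a pseudocount of 1 FPKM. Intervals and floors cover counting error only. All members were named; of each further list, the genes past the threshold with the smallest p, up to 6, were named, and otherwise up to 4 genes with the smallest unadjusted p. Of entries sharing a symbol, the highest was kept. Single-gene values of 1 member of the adaptors and tail signalling list are not reported here.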

Additional observations from a re-analysis of the deposited data

How the results depend on the processing

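No member was called in either knockout or in their difference under any setting run, except Sirpb1c in the Cxcl12 knockout without K8-Cre control 2: leaving out each library in turn called 0 to 1 members there. Genes called over the whole table ranged from 1 to 150 in the Cxcr4 knockout (150 without LysM-Cre control 2), from 0 to 151 in the Cxcl12 knockout (151 without K8-Cre control 2) and from 1 to 30 in the difference (30 without LysM-Cre control 2). In the Cxcr4 knockout 2 genes were called with a pseudocount of 2 CPM, 8 without the filter on low values, 0 without the trend and 2 with only its own 2 groups in the fit; in the Cxcl12 knockout 1 was called with only its own 2 groups; in the difference 2 were called without the filter and 0 without the trend. Without the filter, and likewise without the trend, 0 members and 0 genes were called in the sort, where the fit with both called 5 and 1219. With the replicate number as a replicate block, 1 gene was called in the Cxcl12 knockout, and no member; deviations of same-numbered libraries correlated at 0.06 to 0.14, so the numbers were not taken to pair the libraries.

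Direction changed only for changes that had not passed. Under quantile normalization the Cxcr4 knockout change was -0.0025 for Sirpa and 0.027 for Cd47, and the Cxcl12 knockout change of Sirpb1b was -0.54. Under median-ratio scaling it was -0.087 for Sirpa in the Cxcr4 and -0.019 for Cd47 in the Cxcl12 knockout. With near-identical copies summed, an alternative chosen after seeing the data, the Sirpb1 sum had -0.54 in the Cxcr4 knockout, opposite in sign to Sirpb1b. This sum had -0.46 in the Cxcl12 knockout, opposite to Sirpb1b and Sirpb1c, and -0.080 in the difference, opposite to Sirpb1a and Sirpb1b. Leaving out each library in turn, the Cxcr4 knockout change ranged from -0.0026 to 0.045 for Sirpa, -0.57 to 0.069 for Sirpb1a, -0.88 to 3.68 for Sirpb1b, -0.13 to 0.034 for Cd300a, -0.39 to 0.83 for Cd300lf and -0.36 to 0.30 for Cd47. The Cxcl12 knockout change ranged from -1.69 to 3.57 for Sirpb1b and -0.081 to 0.47 for Cd47, and the difference from -2.17 to 3.09 for Sirpb1b, -0.23 to 0.43 for Cd300lb and -0.56 to 0.10 for Cd47. In the sort, Cd300a ranged from -0.068 to 0.48; with 1 library a group no test can be made there. Causes of these shifts were not tested. Depth limits the low genes: 1 read stands for a larger CPM in the shallowest library (8.60 M reads).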
